A study of Mus musculus with 6 samples.

Results

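Aquaporins are membrane channel proteins, and 8 of their genes (Aqp1, Aqp3, Aqp4, Aqp5, Aqp7, Aqp8, Aqp9 and Aqp11) are described here in mouse induced pluripotent stem cells (iPSCs), out of 24421 gene entries in the count table. The genes were chosen by family name with their values in SRF KO and WT libraries already known, so that their differences between these groups are a description and carry no test. The cells were iPSCs in which both copies of the gene of serum response factor (SRF) were deleted (SRFΔ/Δ, called SRF KO) and iPSCs with the intact conditional allele (SRFf/f, called WT), both grown with serum. There were 3 bulk RNA libraries in each group. Whether these replicates were different clones, or repeated cultures of the same clone, is not in the labels, and the spread between them, on which every p-value below rests, may be technical.

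Aquaporins form tetramers in which each subunit has its own pore, and water crosses along the osmotic gradient without expenditure of energy. The classical members (Aqp1, Aqp4, Aqp5 and Aqp8 among them) pass mainly water, Aqp8 also passing ammonia and hydrogen peroxide. The aquaglyceroporins (Aqp3, Aqp7 and Aqp9) also pass glycerol, and Aqp11 belongs to a divergent branch found in the endoplasmic reticulum. They are best known from absorbing and secreting epithelia, the kidney, the liver and the brain.

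Total counts were between 26321602 and 36680156 per library, and 3 counts, the floor set here for low counts, corresponded to between 0.0828 and 0.117 CPM. CPM are counts per 1000000 of a library's total, the total being scaled by TMM (trimmed mean of M values). The targeted gene, Srf, had 1326, 765 and 1066 counts in the 3 WT libraries but 113, 84 and 131 in the SRF KO libraries (replicates 1 to 3 in each case), so that the labels and this gene pointed the same way in every library. WT replicate 2 stood apart from the other WT libraries. The chi-square of its counts against theirs was 12.2 and 14.6 per degree of freedom, against 3.64 between WT replicates 1 and 3. SRF KO replicate 2 also stood apart from its group, though less far. Its values were 3.96 and 4.88 against SRF KO replicates 1 and 3, which had 1.79 between them.

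The aquaporins did not move together. Aqp8 was near absent in WT and prominent in SRF KO, Aqp9 and Aqp1 were low and higher in SRF KO, Aqp3 and Aqp11 were lower in SRF KO, Aqp5 overlapped between the groups, and Aqp7 and Aqp4 were at the limit of detection. Of the 8 members, 6 passed the filter on low counts (edgeR's filterByExpr, minimum count 10). In Aqp8 and Aqp9 no WT library reached that minimum, so that they passed through SRF KO libraries alone. In Aqp1 only WT replicate 1 reached it, at 17 counts, so that Aqp1 too would not have passed without the SRF KO libraries. At an adjusted p under 0.05 in the fit of all entries, 3 members were higher and 2 lower in SRF KO, where 42.4% of the 14778 genes tested were past the threshold. The same 5 did not overlap between the groups, as did 52.7% of genes tested. Since these values chose the members, nothing is read from these counts.

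**Figure D1:**
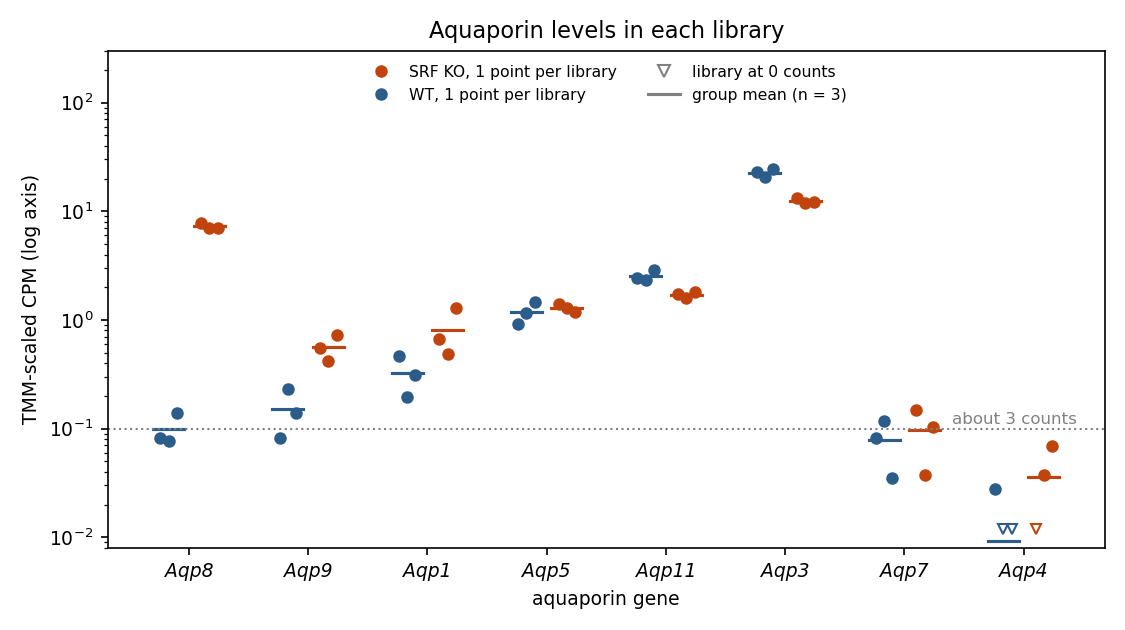
TMM-scaled CPM of the 8 aquaporin genes (log axis), 1 point per library, with a bar at the mean of each group of 3 and open triangles for libraries at 0 counts. Aqp8 lies between 6.99 and 7.84 CPM in SRF KO and between 0.0777 and 0.139 CPM in WT, while Aqp3 is the highest gene in both groups.

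Among the water channels, Aqp8 differed most. It had 211, 185 and 203 counts in SRF KO replicates 1 to 3 and 3, 2 and 4 counts in WT replicates 1 to 3. All SRF KO libraries were far above all WT libraries, and the SRF KO values lay close together, with a coefficient of variation (CV) of 6.65% against 7.08% from counting alone. The SRF KO level was 7.28 ± 0.485 CPM, where WT had 0.100 ± 0.0342 CPM (SD, n = 3). From the summed counts, 599 against 9, the ratio of SRF KO to WT was 73.3, with an exact 95% interval of 38.3 to 161 that covers counting error only. With WT libraries at or under 3 counts set to 3, the ratio was 64.5. The fitted log2 fold change was 6.13 (SE 0.22), which ranked 5 among the rises of the 14778 genes tested.

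The region before the start of Aqp8 is shown with that of Aqp3, because these are the most abundant members in SRF KO and they differed in opposite directions. Both are from RefSeq on GRCm38.p6 (the submitters' processing notes name mm10, the same assembly), on the coding strand, from base 250 to base 11 before the RefSeq start. Capitals mark the motifs found by the search described next.
Aqp8, chr7:123462044-123462283, plus strand: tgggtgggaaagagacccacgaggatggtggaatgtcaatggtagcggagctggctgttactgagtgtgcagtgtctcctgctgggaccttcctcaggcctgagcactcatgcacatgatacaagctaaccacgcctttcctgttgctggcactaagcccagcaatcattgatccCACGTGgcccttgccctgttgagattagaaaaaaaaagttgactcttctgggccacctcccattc
Aqp3, chr4:41098194-41098433, minus strand: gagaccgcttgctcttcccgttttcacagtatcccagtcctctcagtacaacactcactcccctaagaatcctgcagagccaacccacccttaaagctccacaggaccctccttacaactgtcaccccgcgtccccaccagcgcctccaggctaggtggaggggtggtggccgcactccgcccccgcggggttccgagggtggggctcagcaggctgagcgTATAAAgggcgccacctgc

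The 250 bases before the start were searched on both strands for 6 motifs. The CArG box is the motif that SRF binds, AGATAA that of GATA factors, CAAAGTCCA that of HNF4 factors and TGTTTAC that of FOXA factors. The core promoter element searched was the TATA box with the letters TATAAA, which a CArG box can contain. The E-box with the letters CACGTG was added after the sequences were seen. Windows were at hand for 7 of the 8 members and for 11 of 12 aquaporin genes of the table. Aqp8 held the E-box at bases 75 to 70 before its start, and Aqp3 held the TATA box at bases 29 to 24. Aqp5 held the E-box at bases 87 to 82, and Aqp1, Aqp9 and Aqp11 held none of the 6. Aqp7 held the GATA motif at bases 132 to 127 in its window from 41048087, but not in its other window, from 41047913. Outside the members, Aqp2 and Aqp6 also held the E-box, which makes 4 of the 11 aquaporin genes, and Aqp2 also held the GATA motif. Of those with the E-box, Aqp2, Aqp5 and Aqp6 are neighbours on chromosome 15, so that they need not be separate cases. The gaps are 6.2 kb from Aqp2 to Aqp5 and 6.6 kb from Aqp5 to Aqp6. Of all 32851 windows, 6.02% held this E-box, 12.4% the TATA box, 9.99% the GATA motif, 3.17% the FOXA motif and 0.384% the HNF4 motif. Counted by gene, 6.86% of 27025 genes held the E-box. The FOXA and HNF4 motifs were in no aquaporin window. No aquaporin window held a CArG box, which 1.47% of all windows held, while the window of Srf itself held 2, at bases 82 to 73 and 62 to 53. The window of Fos, searched for comparison as that of Srf was, held a TATA box but no CArG box. Egr1 was looked up in the same way and returned no match to any of the 6 motifs, though whether it had a window was not recorded. A match or its absence describes these letters in this window and no more.

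Aqp1, the water channel of red blood cells, capillaries and the proximal tubule, had 18, 13 and 37 counts in SRF KO replicates 1 to 3 and 17, 5 and 9 counts in WT replicates 1 to 3. In CPM the groups did not overlap, but the lowest SRF KO library (0.491 CPM) was close to the highest WT library (0.469 CPM). The SRF KO level was 0.813 ± 0.413 CPM, where WT had 0.326 ± 0.138 CPM (SD, n = 3). SRF KO replicate 3 stood above the other SRF KO libraries, and the CV in SRF KO was 50.8% where counting gives 21.0%. The log2 fold change of 1.26 (SE 0.41) was 0.76 without this library.

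Aqp5, the water channel of salivary, lacrimal and airway glands, had 38, 34 and 34 counts in SRF KO replicates 1 to 3 and 33, 30 and 42 counts in WT replicates 1 to 3. The groups overlapped, at 1.29 ± 0.119 and 1.18 ± 0.277 CPM (SD, n = 3). The ratio of SRF KO to WT was 1.11, with an exact 95% counting interval of 0.841 to 1.47. Its log2 fold change of 0.15 (SE 0.21) was -0.04 without WT replicate 1 and 0.33 without WT replicate 3, so that its sign depended on these libraries.

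Aqp4, the channel of astrocyte end-feet, had 0, 1 and 2 counts in SRF KO replicates 1 to 3 and 1, 0 and 0 counts in WT replicates 1 to 3. All libraries were at or under the floor of 3 counts, so that no fold is given.

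Among the aquaglyceroporins, Aqp3 was the most abundant member in both groups. This channel of basolateral epithelial membranes and of skin had 354, 318 and 351 counts in SRF KO replicates 1 to 3 and 825, 528 and 702 counts in WT replicates 1 to 3. Every SRF KO library was below every WT library, at 12.4 ± 0.629 against 22.6 ± 1.98 CPM (SD, n = 3). SRF KO thus held 55.0% of the WT level, a log2 fold change of -0.86 (SE 0.08). With the largest counts of the family, its ratio of SRF KO to WT of 0.548 had the narrowest counting interval, 0.508 to 0.591.

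Aqp9, the glycerol and urea channel of hepatocytes, had 15, 11 and 21 counts in SRF KO replicates 1 to 3 and 3, 6 and 4 counts in WT replicates 1 to 3. The groups did not overlap, but each value rests on few counts. The mean was 0.566 ± 0.155 CPM with SRF deleted, where WT had 0.152 ± 0.0760 CPM (SD, n = 3), a ratio of 3.98 with an exact 95% counting interval of 2.12 to 8.02. The log2 fold change was 1.96 (SE 0.41). An antisense gene, Gm32511, overlaps Aqp9 in the annotation and had 0 counts in every library.

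Aqp7, the glycerol channel of fat cells, had 4, 1 and 3 counts in SRF KO replicates 1 to 3 and 3, 3 and 1 counts in WT replicates 1 to 3. It lies on chromosome 4 at 44.6 kb from Aqp3, from 41033074 to 41048139 (GENCODE M21, GRCm38). A difference between the groups was not detectable at this depth, and no fold is given.

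Aqp11, whose loss causes cystic kidneys in mice, had 47, 42 and 52 counts in SRF KO replicates 1 to 3 and 89, 60 and 83 counts in WT replicates 1 to 3. All SRF KO libraries were below all WT libraries. The SRF KO level of 1.71 ± 0.110 CPM was 66.8% of the WT level of 2.56 ± 0.294 CPM (SD, n = 3). The log2 fold change was -0.58 (SE 0.16), nearer to 0 than that of Aqp3, and the difference between these members was not tested.

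The make-up of the aquaporin counts differed more than their sum. Summed over the 8 members, SRF KO had 24.2 ± 1.34 CPM and WT had 27.0 ± 2.41 CPM (SD, n = 3), and WT replicate 2 at 24.6 CPM lay within the SRF KO range of 22.9 to 25.5. Of the members' counts, Aqp3 took 83.7% ± 0.885 in WT and 51.3% ± 1.33 in SRF KO (SD, n = 3). Aqp8 took 0.366% ± 0.0934 in WT but 30.1% ± 1.02 in SRF KO. Without Aqp8, SRF KO summed to 16.9 ± 0.959 CPM and WT to 26.9 ± 2.38 CPM.

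**Figure D2:**
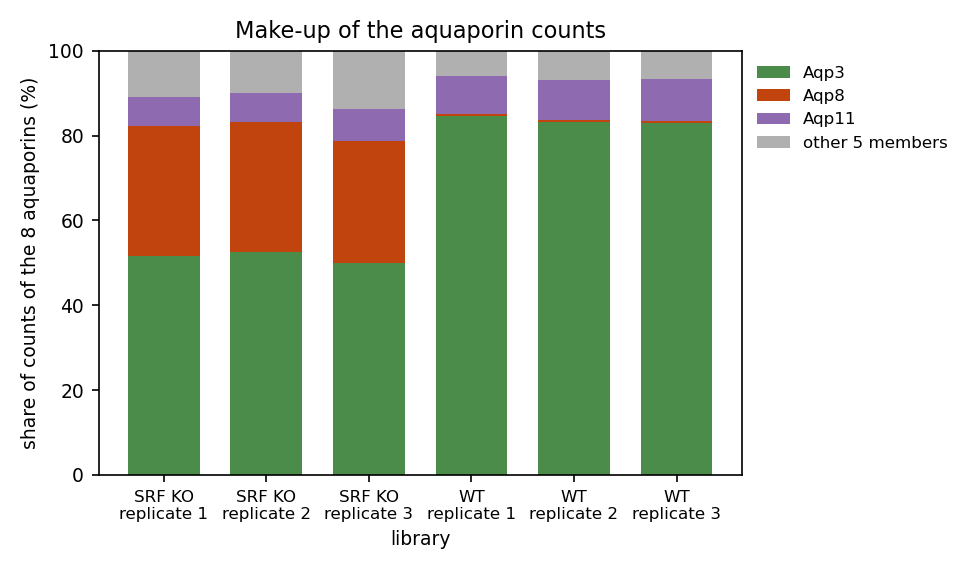
Share (%) of the counts of the 8 aquaporins taken by Aqp3, Aqp8, Aqp11 and the other 5 members in each library, as stacked bars from 0. Aqp8 takes between 28.9% and 30.7% in the SRF KO libraries and between 0.308% and 0.473% in the WT libraries.

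Levels of different genes were compared per kilobase of exon. In WT, Aqp3 was first at 12.8 ± 1.12 CPM per kilobase (SD, n = 3). Aqp11 and Aqp5 followed at 0.685 ± 0.0788 and 0.657 ± 0.154, and these neighbours did not differ beyond their spread. Aqp1 came next among the members at 0.124 ± 0.0525, below all libraries of Aqp5. Aqp8 at 0.0671 ± 0.0230, Aqp9 at 0.0452 ± 0.0226 and Aqp7 at 0.0305 ± 0.0160 CPM per kilobase followed, and from Aqp1 down the libraries of each gene overlapped those of the next. In SRF KO, Aqp3 was again first at 7.04 ± 0.356 CPM per kilobase and Aqp8 second at 4.89 ± 0.325 (SD, n = 3), a gap larger than their spread. Among the members Aqp5 followed at 0.718 ± 0.0660, Aqp11 at 0.458 ± 0.0295, Aqp1 at 0.310 ± 0.157 and Aqp9 at 0.169 ± 0.0463 CPM per kilobase. The libraries of Aqp1 overlapped those of its neighbours Aqp11 and Aqp9. Aqp8 thus stood 7 in order among all 12 aquaporins in WT and 2 in SRF KO. Taking the longest transcript in place of all exons gave the same order.

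**Figure D3:**
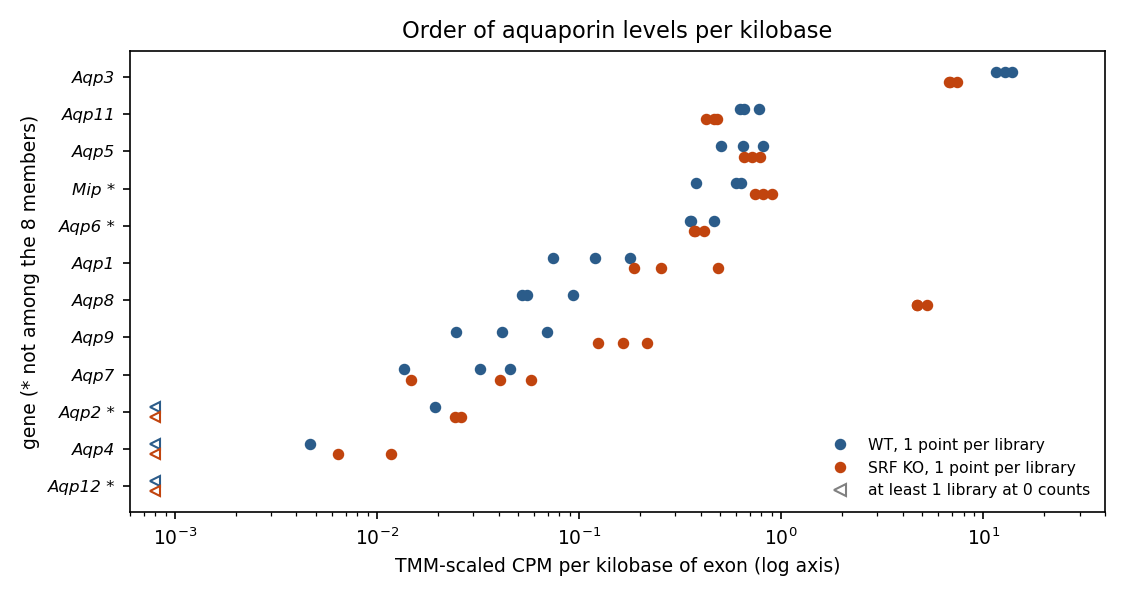
TMM-scaled CPM per kilobase of exon (log axis) for all 12 aquaporin genes of the table, ordered by their WT mean, 1 point per library; stars mark the 4 genes that are not members. Aqp8 is the gene whose SRF KO points lie farthest from its WT points, and Aqp3 leads in both groups.

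The remaining 4 aquaporins of the table can be set beside these. Aqp12 had 0 counts in every library, and Aqp2, the vasopressin-regulated channel of the collecting duct, had at most 1 count. Mip, the main channel of lens fibres, had 47, 51 and 46 counts in SRF KO replicates 1 to 3 and 49, 21 and 37 counts in WT replicates 1 to 3. In CPM its SRF KO libraries were all higher, at 1.75 ± 0.168 against 1.15 ± 0.293 (SD, n = 3), and the fitted log2 difference was 0.57 ± 0.21 (SE) with an adjusted p of 0.0425 (edgeR). This call was lost in 5 of 11 other fits. They were DESeq2 (adjusted p 0.0923) and edgeR when any SRF KO library was left out (0.0976, 0.119 and 0.0621 for replicates 1, 2 and 3) or WT replicate 2 (0.0968). Aqp6, a channel of intracellular vesicles in kidney cells that lies 6.6 kb from Aqp5, overlapped between the groups, with a fitted log2 difference of -0.05 ± 0.21 (SE) and an adjusted p of 0.883 (edgeR).

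Markers of cell types were read in the same libraries. All 10 pluripotent cell markers were expressed in both groups, with a summed level between 5400 and 5522 CPM in SRF KO and between 6278 and 6757 CPM in WT, 1 of them being higher and 4 lower in SRF KO. Of 17 endoderm markers, 16 were tested and all 16 were higher in SRF KO, with a summed level between 2373 and 2533 CPM in SRF KO and between 201 and 220 CPM in WT. Afp, a defining marker of visceral endoderm, stayed at or under 3 counts in every library, while Ttr had 52, 35 and 51 counts in SRF KO and 0 in every WT library. The 10 fibroblast markers were all higher in SRF KO, between 842 and 1004 CPM against 415 and 468 CPM. Both sums moved in the direction of Aqp8, Aqp9 and Aqp1. In bulk RNA, fewer cells of a type and less RNA per cell cannot be told apart, and the part of these cells in the aquaporin values was not tested.

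The pluripotent cell sum was lower in SRF KO, as were Aqp3 and Aqp11. The sums for trophoblast and for endothelial and blood cells were lower as well, but the difference in each of these lay mostly in 1 gene. Trophoblast markers summed to between 89.5 and 93.7 CPM in SRF KO and between 127 and 139 CPM in WT, with 4 of 9 tested genes lower, Tfap2c alone going from 71.0 ± 5.33 to 33.1 ± 1.89 CPM (SD, n = 3). Endothelial and blood cell markers, of which 2 of 7 tested were higher and 3 lower, summed to between 46.5 and 48.9 CPM in SRF KO and between 72.2 and 78.9 CPM in WT. Pecam1, which pluripotent cells also express, went from 55.6 ± 2.76 to 29.4 ± 1.10 CPM, and Tek and Vwf were also lower. The endothelial genes Cdh5 and Kdr were higher in SRF KO, as was Aqp1, which endothelial cells express. Cdh5 went from 5, 7 and 5 counts in WT replicates 1 to 3 to 132, 114 and 128 with SRF deleted, and the log2 fold changes were 4.56 for Cdh5 and 1.49 for Kdr. Of the haemoglobin genes, Hbb-bt was at 0 in every library and Hba-a1 at or under 3 counts. The part of such cells in the values of Aqp1 was not tested.

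**Figure D4:**
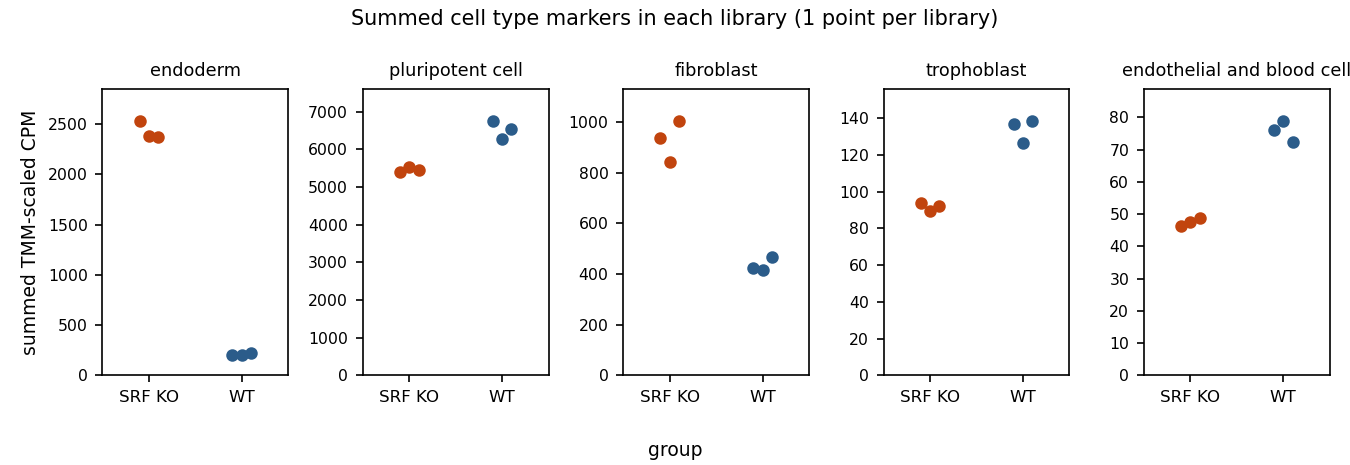
Summed TMM-scaled CPM of 5 lists of cell type markers, 1 panel per list with its own axis from 0, 1 point per library. The endoderm and fibroblast sums are higher in all SRF KO libraries, and the other 3 sums are lower.

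The genes whose pattern over the 6 libraries was most like that of a member were sought among 12341 genes with a mean of at least 50 counts, by Pearson correlation of log2 CPM. For Aqp8 these were Igf2 (0.9999), a growth factor, Gata4 (0.9998), a transcription factor of endoderm, and Lamc1 (0.9997), a laminin chain. For Aqp3 they were the kinase gene Mapk13 (0.9994), Smtnl2 (0.999) and Eras (0.9984), a Ras protein of embryonic stem cells. For Aqp11 they were Lrrc8b (0.9997), a subunit of the volume-regulated anion channel, Prex1 (0.9992) and Rims4 (0.9976). All 6 libraries share the 2 groups, so that any gene with a clear group difference correlates highly, and 1270 genes were over 0.95 with Aqp8, 1020 with Aqp3 and 652 with Aqp11. The pattern was not a matter of size, since Gata4 had a log2 fold change of 3.95, Igf2 of 1.32 and Lamc1 of 0.77 against 6.13 for Aqp8. The mean correlation with Aqp8, Aqp3 and Aqp11 together reached at most 0.3604 (Hjurp), as these members differ in opposite directions.

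To set the aquaporins among the genes they work with, lists of related genes were counted in the same fit. Of all genes tested there, 42.4% were past the threshold (21.2% higher and 21.3% lower in SRF KO), and the median log2 fold change was -0.01. The counts of the lists are a description, and no list was tested against other genes. Ion transport supplies the osmotic gradients that water follows. Of 24 tested genes of ion transport and cell volume, 9 rose, 7 fell and 8 did not pass the threshold (66.7% past it, median log2 fold change 0.13). Car2 and Car4, carbonic anhydrases that supply bicarbonate and protons, rose from 16.4 ± 0.494 to 48.0 ± 1.07 CPM and from 14.5 ± 0.320 to 38.8 ± 1.62 CPM (SD, n = 3). Their log2 fold changes were 1.55 and 1.42 (edgeR adjusted p 5.74e-09 and 2.24e-08). Trpv4, a calcium channel opened by cell swelling, fell by 1.06 on the log2 scale (adjusted p of 0.000682 in edgeR), from 2.66 ± 0.394 to 1.28 ± 0.196 CPM (SD, n = 3). Among the subunits of the volume-regulated anion channel, which were looked up after their values were seen, Lrrc8b fell by 0.57 and Lrrc8c rose by 0.86 on the log2 scale, Lrrc8d rose by 0.17, and Lrrc8a and Lrrc8e did not pass the threshold (0.15 and 0.08).

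Several aquaporins pass hydrogen peroxide. Of 20 tested genes that make or remove it, 6 rose, 6 fell and 8 did not pass (60.0% past the threshold, median 0.12), and without TMM scaling 9 rose and 5 fell. Sod3, the extracellular superoxide dismutase, rose from 2.59 ± 0.708 to 6.94 ± 1.11 CPM, and Nox4, an oxidase that makes hydrogen peroxide, from 2.30 ± 0.144 to 5.03 ± 0.543 CPM (SD, n = 3). Their log2 fold changes were 1.42 and 1.13 (edgeR adjusted p 7.45e-05 and 4.24e-05). Catalase (Cat), Sod2 and Gpx4, named after their values were seen, fell by 0.43, 0.56 and 0.87 on the log2 scale.

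Glycerol enters through Aqp3, Aqp7 and Aqp9. Of 19 tested genes of glycerol uptake and use, 6 rose, 3 fell and 10 did not pass (47.4% past the threshold, near the 42.4% of all genes, median 0.11), and none changed by as much as 1 on the log2 scale. Leaving out SRF KO replicate 2 or 3 lowered the number that rose to 2 and 3, and leaving out WT replicate 1 lowered it to 2. Leaving out SRF KO replicate 1 lowered the number that fell to 1. Without TMM scaling 7 rose and 2 fell. The largest value, seen after the fact, was that of the fatty acid receptor gene Cd36, which rose by 0.86 ± 0.13 (SE) on the log2 scale, with an adjusted p of 0.000277 in edgeR. Glycerol kinase, Gyk, also named after its value was seen, fell by 0.27 on the log2 scale, close to the threshold at an adjusted p of 0.0467 in edgeR.

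Of 21 tested genes of aquaporin anchoring and trafficking, 5 rose, 9 fell and 7 did not pass (66.7% past the threshold, median -0.07). Myo5b, a motor that carries recycling vesicles to the apical membrane, rose from 2.19 ± 0.376 to 9.82 ± 0.803 CPM (SD, n = 3), or by 2.18 ± 0.13 (SE) on the log2 scale, with an adjusted p of 2.43e-07 in edgeR. Without TMM scaling 7 rose and 5 fell, and without WT replicate 2, 8 rose. Those that fell were 4, 5 and 4 without SRF KO replicates 1, 2 and 3.

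Of 11 tested genes of the response to hypertonic medium, 5 rose, 2 fell and 4 did not pass (63.6% past the threshold, median 0.11). Their transcription factor gene Nfat5 rose by 0.43 and the kinase gene Sgk1 by 0.39 on the log2 scale, both named after their values were seen. Leaving out either SRF KO replicate 1 or WT replicate 3 lowered the number that rose to 3. The number that fell was 1 when any SRF KO library or WT replicate 2 was left out, and also with no TMM scaling. Of 5 tested genes of urea and other small solute channels, 1 rose, 3 fell and 1 did not pass (80.0% past the threshold, median -0.36). All 3 genes named here were chosen after their values were seen. The glucose transporter genes Slc2a1 and Slc2a3 fell by 0.36 and 0.40 on the log2 scale, and the urea transporter gene Slc14a1, rose from 0.185 ± 0.0416 to 0.450 ± 0.0607 CPM (SD, n = 3), a call that was lost under DESeq2 and on leaving out either SRF KO replicate 1 or WT replicate 3.

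**Figure D5:**
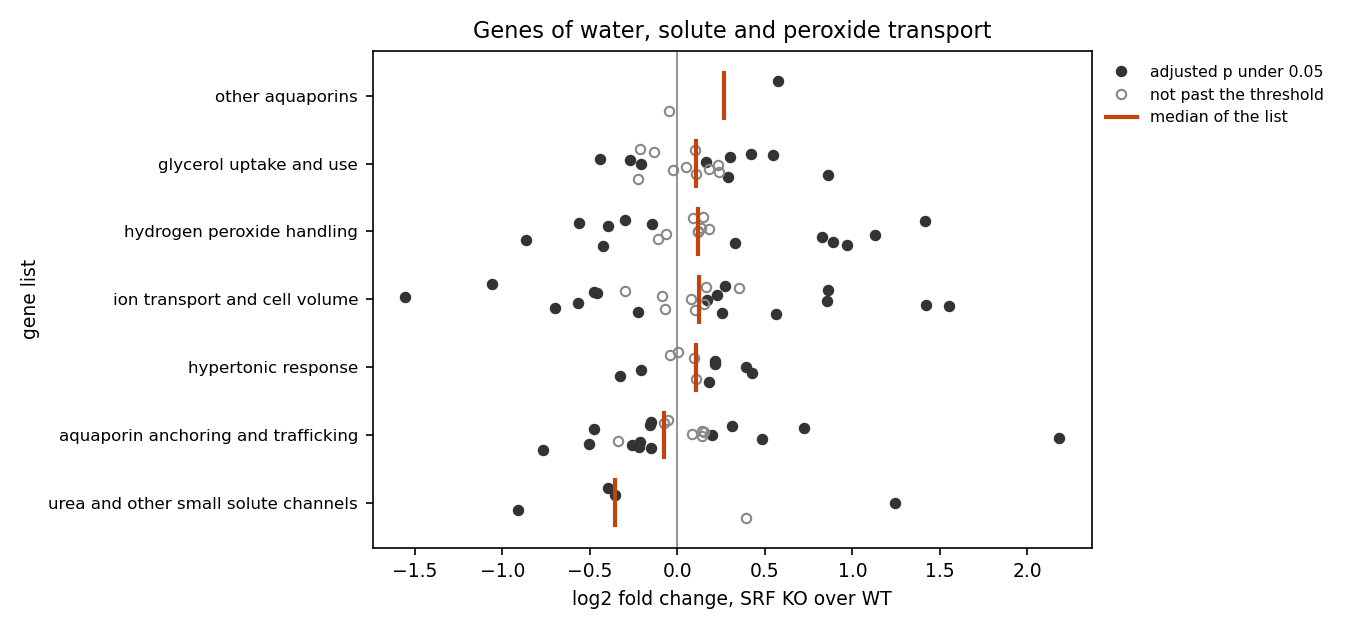
Log2 fold change of SRF KO over WT for each tested gene of 7 lists; filled points have an edgeR adjusted p under 0.05 and bars mark the median of each list. All 7 medians lie between -0.36 and 0.26, and the largest rise is that of Myo5b at 2.18.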

How the data were processed

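RNA was measured in 6 bulk libraries. The deposited table gives whole-number counts of reads per gene and per transposable element subfamily, which the authors did not normalize, judged from the values. Per the labels' protocols, paired reads of 150 bp were cleaned of adaptor, low-quality and empty reads. Per the submitters' processing notes the build is mm10, and DESeq2 was used; the aligner, counter, annotation and strand setting are not given in the sources used here.

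In R 4.3.3, all 15611 entries that passed edgeR's filterByExpr (minimum count 10) were scaled by TMM and fitted with edgeR 4.0.16, quasi-likelihood test, with Benjamini-Hochberg adjustment over all of them and a threshold of 0.05. The SE was derived from the fold change and the F statistic. Intervals of ratios are exact 95% binomial intervals on summed counts. The reads carry no molecular identifiers that the sources name, and intervals and floors cover counting error only. Exon lengths are from GENCODE M21 basic transcripts.

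The members and lists were chosen with earlier results of these data known. Named genes are Srf, the members, up to 4 genes per related list and direction past the threshold with a log2 fold change of 1 or more in either direction and a mean of at least 50 counts, and the genes most like a member. Other genes, apart from the remaining aquaporins and the markers, were named after their values were seen. Alternatives were DESeq2 1.42.0, no TMM, no filter, gene entries alone, a replicate block, each library left out, and stricter thresholds. The scripts were tested on simulated data.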

Additional observations from a re-analysis of the deposited data

How the results depend on the processing

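All 72 comparisons of the members' log2 fold changes with an alternative stayed within the spread between replicates. This spread, on the log2 scale, was 0.86 for Aqp1, 0.66 for Aqp9 and 0.35 for Aqp5, against 0.15 for Aqp3. Genes with noisy libraries thus stay within it more easily, and the change of sign of Aqp5 did so. With 1 library left out in turn, they were between 5.99 and 6.42 for Aqp8, 1.61 and 2.36 for Aqp9, 0.76 and 1.66 for Aqp1, -0.04 and 0.33 for Aqp5, -0.92 and -0.81 for Aqp3 and -0.63 and -0.49 for Aqp11. Genes past the threshold fell from 3132 higher and 3141 lower to 817 and 260 when a log2 fold change of 1 or more in size was also required, and to 2013 lower at an adjusted p under 0.01, as such thresholds do by construction. For the lists, 26 of 154 comparisons moved a count of calls by more than 1.5 times, and 5 of 77 moved a median beyond the spread. DESeq2 called 0 of the other aquaporins and 0 solute channels higher. Without TMM, 1 hypertonic gene and 5 anchoring genes were lower. With 1 library left out, those higher were between 0 and 1 for the other aquaporins and solute channels, 2 and 7 for glycerol, 3 and 5 for hypertonic response and 5 and 8 for anchoring, and those lower between 1 and 4 for glycerol, 1 and 2 for hypertonic response and 4 and 9 for anchoring. The cause was not tested.

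The deviations from the group means correlated at 0.042, 0.203 and 0.096 between libraries of the same replicate number. SRF KO replicates 2 and 3 correlated best with the WT library of their own number, and SRF KO replicate 1 with WT replicate 3 (0.109). These values do not settle whether the numbers mark pairs. The replicate block gave 3659 higher and 3853 lower genes, against 3132 and 3141 without it. With the block, Aqp8 was at 6.14 and Aqp3 at -0.86, 5 glycerol genes were lower and 8 anchoring genes higher. Depth limits Aqp4, Aqp7 and Aqp9, which have at most 21 counts in any library, and the WT level of Aqp8.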

Other observations

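The nearest tested protein-coding genes other than aquaporins were taken on either side of the 8 aquaporins, a choice made after the aquaporin values were seen. They are 14 genes in GENCODE M21. Aquaporin genes were passed over, although Aqp6 lies 6.6 kb from Aqp5 and Aqp3 lies 44.6 kb from Aqp7, nearer than the genes taken on those sides. Of these, 8 were past the threshold in edgeR, 5 higher and 3 lower in SRF KO (57.1%, against 42.4% of all genes tested), and the largest absolute log2 fold change was 0.93, that of Cdh2, the N-cadherin gene, 1177895 bp from Aqp4. Next to Aqp8, Zkscan2, a zinc finger gene 7380 bp away, fell by 0.50 ± 0.18 (SE) on the log2 scale (adjusted p of 0.0466 in edgeR), and Lcmt1, a methyltransferase gene 31933 bp away, stood at -0.16 (adjusted p 0.0507). Neither was higher in SRF KO, where Aqp8 was. Next to Aqp3 and Aqp7, Nol6 and Nfx1 had log2 fold changes of 0.19 and 0.05 (adjusted p 0.0425 and 0.476). Next to Aqp11, Clns1a, whose product is a chloride conductance regulator and splicing factor 3210 bp away, stood at -0.07 (adjusted p 0.284), and the kinase gene Pak1, on the other side, fell by 0.37 on the log2 scale (adjusted p 0.000368).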
